A study of Mus musculus with 9 samples.

Results

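The genes described here encode the MHC class I antigen presentation machinery and the catalytic subunits of the immunoproteasome. They are 10 genes, chosen by name from the 20627 features of a table of gene read counts: B2m, H2-K1, H2-D1, H2-T23, Tap1, Tap2, Tapbp, Psmb8, Psmb9 and Psmb10. All 10 were found, each in 1 row, and all 10 passed the filter on low counts that left 13311 features for testing. The counts came from polyadenylated RNA of the mouse macrophage-like line RAW264.7, an established cell line, in 9 libraries.

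The libraries fall into 3 groups of 3. HG cells spent 6 h in 35 mmol/l glucose, and HG-SIG cells spent the same time in the same glucose with sitagliptin phosphate, an inhibitor of dipeptidyl peptidase 4 used against type 2 diabetes. NC was taken as the control, and neither its glucose concentration nor its incubation time is given in the sources used here. All groups are the same cell line, with no genetic change named. There was no group with an osmotic control and none with sitagliptin without added glucose, so the effect of glucose as a sugar and that of the added osmolarity cannot be told apart. Whether the 3 replicates of each group came from separate cultures is not stated, so the p-values speak of the spread between libraries, which may be only technical.

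An MHC class I molecule is a heavy chain, such as the products of H2-K1 and H2-D1, held together by beta-2-microglobulin, the product of B2m, and it displays a short peptide on the cell surface to CD8 T cells. The peptides come mostly from proteins cut by the proteasome, are carried into the endoplasmic reticulum by the transporter made of Tap1 and Tap2, and are loaded with the help of tapasin, the product of Tapbp. Interferons induce these genes in macrophages together with Psmb8, Psmb9 and Psmb10, whose products replace the constitutive catalytic subunits Psmb5, Psmb6 and Psmb7 in newly made proteasomes and change which peptides are cut. Nlrc5 is a transactivator of class I genes, and IRF proteins act at their interferon-responsive promoters.

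Libraries held 23285821 to 31571578 counts, and the 10 genes together took 0.14% to 0.145% of the counts in NC, 0.122% to 0.126% in HG and 0.128% to 0.13% in HG-SIG. All 10 macrophage markers examined were in the table, and their summed level was 11500 to 11900 CPM in NC, 10200 to 11000 CPM in HG and 5280 to 5390 CPM in HG-SIG. CPM are counts scaled to a common library total, here corrected by TMM, a method that assumes most genes do not change. The 7 of 10 T and B lymphocyte markers in the table summed to at most 0.196 CPM in any library, the 5 of 8 epithelial and fibroblast markers to at most 0.268 CPM, and the 6 of 6 dendritic cell markers to 0.949 to 2.47 CPM. In the T and B lymphocyte list Cd3e, Cd3g and Ms4a1 are not in the table. Lyz2, at 6110 CPM in HG and 2820 CPM in HG-SIG, made up most of the macrophage marker sum. From HG to HG-SIG 9 of the 10 macrophage markers fell and 1, Fcgr3, rose (0.47 log2, adjusted p = 6.36e-04). Of all features 52.5% were called in that comparison, 25.7% higher and 26.8% lower. From NC to HG 5 of the 10 fell, 1 rose and 4 did not pass, with 29.5% of all features called in that comparison. These marker differences stand beside every comparison given here, and their part in the results was not tested. In bulk RNA, fewer cells of a type and less RNA of a gene per cell cannot be told apart.

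Of the 10 genes, 8 lie in the MHC region of chromosome 17, B2m is on chromosome 2 and Psmb10 on chromosome 8 (mm10 coordinates from GENCODE M21). H2-K1 spans chr17:33996017-34000347 on the minus strand, H2-D1 chr17:35262730-35267499 on the plus strand and H2-T23 chr17:36029773-36032855 on the minus strand. Tap1 (chr17:34187553-34197225), Psmb8 (chr17:34197721-34201454) and Tap2 (chr17:34203527-34216321) follow each other on the plus strand, and Psmb9 (chr17:34181987-34187764) runs away from Tap1 on the minus strand. Tapbp (chr17:33915899-33929292) and B2m (chr2:122147686-122153083) are on the plus strand, and Psmb10 (chr8:105935735-105938444) on the minus strand. Tap1 and Psmb9 overlap by 212 exonic bases, and with no word on whether counting used strand, reads there cannot be assigned to either gene. RAW264.7 comes from a BALB/c mouse and carries other H2 alleles than the C57BL/6J genome of mm10, and the effect of this on the counts of the H2 genes was not tested. Of the 50-base stretches of the transcripts, 9.6% in H2-K1, 12.8% in H2-D1 and 13.6% in H2-T23 occur in another gene as well, so their values carry some uncertainty of assignment, whereas the share was 2.9% in Tapbp and at most 0.7% in the other members.

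Class I promoters are known for an NF-kB site next to an interferon-stimulated response element, and sequences before the RefSeq starts are shown here as a description. Whether these sites had a part in any difference between the groups was not tested. RefSeq promoter windows (GRCm38.p6, the assembly of mm10) were at hand for 9 of the 10 members, all but Tap2. RefSeq starts can differ from the ends of the GENCODE spans given above. Among members with a match in the search below, the windows of H2-D1, Tapbp, Psmb8 and Psmb9 lie wholly inside the spans of their genes. Those of H2-T23 and Tap1 lie partly inside. GENCODE also has Tap1 and Psmb9 overlap where the RefSeq starts leave a gap. The 250 bases before each RefSeq start were searched on both strands for the IRF core AANNGAAA, the kappaB consensus, the GAS element TTCNNNGAA, CCAAT and TATAAA. In B2m (chr2:122147437-122147685, plus strand) the capitals mark the IRF core and then a kappaB match.
B2m: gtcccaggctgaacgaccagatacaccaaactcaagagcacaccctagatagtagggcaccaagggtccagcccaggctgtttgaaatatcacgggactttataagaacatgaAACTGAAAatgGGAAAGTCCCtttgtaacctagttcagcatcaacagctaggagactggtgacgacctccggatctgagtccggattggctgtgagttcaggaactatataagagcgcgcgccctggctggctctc
In H2-K1 (chr17:34000429-34000458, minus strand) and H2-D1 (chr17:35262923-35262952, plus strand) the capitals mark overlapping kappaB matches and then an IRF core read on the opposite strand.
H2-K1: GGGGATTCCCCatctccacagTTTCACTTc
H2-D1: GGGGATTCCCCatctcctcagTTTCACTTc
These stretches of H2-K1 and H2-D1 are identical at 29 of 30 bases. In H2-T23 the capitals mark IRF cores on the opposite strand at chr17:36032807-36032836 and chr17:36032764-36032793 (both minus strand), with no kappaB match in the window.
H2-T23 first: gatcctactgcTTTCTCTTtcataaagaca
H2-T23 second: ctcaattctcaTTTCTGTTggacgcctagt
By their RefSeq starts, Tap1 and Psmb9 begin 225 bases apart and run in opposite directions, and their windows share the CCAAT box in capitals (chr17:34187322-34187351, plus strand).
Tap1 and Psmb9: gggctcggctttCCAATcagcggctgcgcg

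The IRF core was in the windows of 4 of 9 members (B2m, H2-K1, H2-D1 and H2-T23) and in 21.6% of 27025 promoters. A kappaB match was in 3 of 9 (B2m, H2-K1 and H2-D1) and in 7.0% of all promoters. CCAAT was in 7 of 9 against 34.5%, TATAAA in B2m, Psmb8 and H2-D1 against 13.0%, and the GAS element in Psmb8 alone among the members against 7.2% of promoters. The IRF and kappaB matches of the members are thus in class I chain promoters, while the windows of Tap1, Tapbp, Psmb8, Psmb9 and Psmb10 hold neither set of letters. For Tapbp, Psmb8 and Psmb9 the window lies inside the GENCODE span, so the bases before the GENCODE start were not searched. A match is a description of the letters and not a measured binding site.

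Levels are compared between genes as TPM, counts per transcript length scaled to the same sum in each library, here with the longest coding transcript of GENCODE M21 and without TMM. In NC the order was B2m at 957 ± 38.4 TPM (SD, n = 3), H2-D1 at 555 ± 22.1, H2-K1 at 363 ± 1.35, Tapbp at 146 ± 8.18, Psmb8 at 87.1 ± 2.44, H2-T23 at 53.9 ± 0.855 and Psmb10 at 44.4 ± 4.41. Tap1 at 22.5 ± 0.929 TPM and Psmb9 at 21 ± 2 TPM overlapped between libraries, and Tap2 was lowest at 15.1 ± 0.863. All other neighbours in this order were separated in all 3 NC libraries. The light chain and the classical heavy chains were thus far above the peptide transporter. The constitutive subunits Psmb5, Psmb6 and Psmb7, at 185 ± 6.75, 388 ± 22.9 and 403 ± 12.5 TPM, were each above the immunoproteasome subunit that takes their place. In HG and HG-SIG, H2-T23 (40.3 ± 0.368 and 26.6 ± 0.193 TPM) stood below Psmb10 (45 ± 1.8 and 34.6 ± 1.51 TPM), the reverse of NC. In HG-SIG, Psmb9 at 23.4 ± 2.13 and Tap1 at 20.1 ± 2.22 TPM overlapped again, while in HG Psmb9 at 18.8 ± 1.65 lay above Tap1 at 14.8 ± 1.04 TPM.

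**Figure D1:**
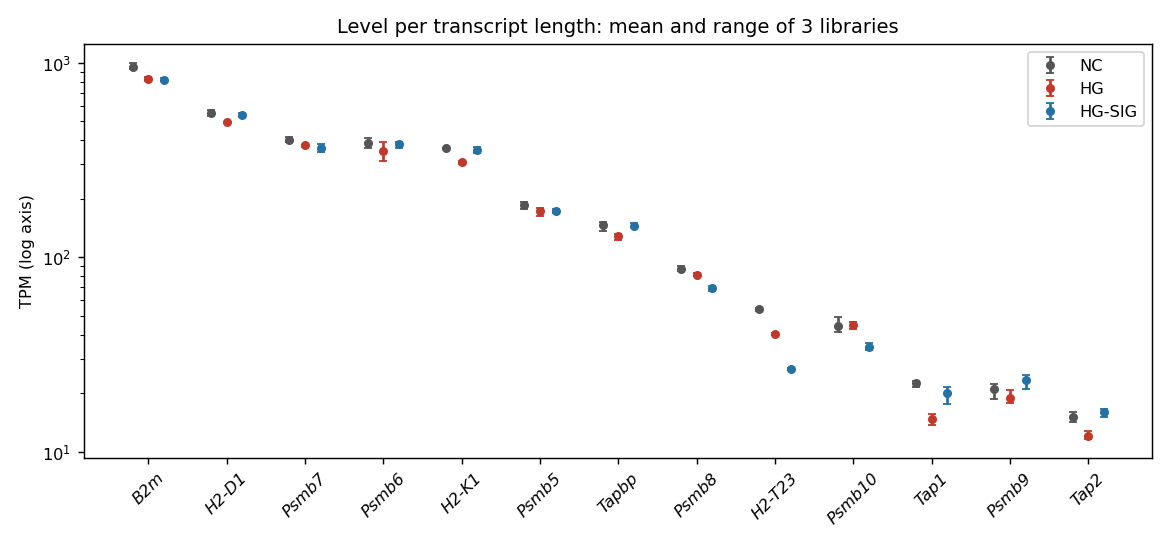
Level per transcript length (TPM, log axis) of the 10 members and of Psmb5, Psmb6 and Psmb7 in NC, HG and HG-SIG; points are means and bars the range of 3 libraries, without TMM. B2m was highest in each group (957 TPM in NC) and Tap2 lowest (15.1 TPM in NC).

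The comparison of HG with NC is that of high glucose without sitagliptin. Glucose, osmolarity and any difference in incubation time cannot be told apart in it. All 4 class I chains and all 3 peptide loading genes among the members were lower in HG, and 1 of 3 immunoproteasome subunits was: 8 of the 10 members fell, 0 rose and 2, Psmb9 and Psmb10, did not pass the test (edgeR quasi-likelihood test, adjusted p under 0.05 over all features tested). The background is high, with 29.5% of all features tested called, 14.3% higher and 15.2% lower. The falls were small, with a median log2 fold change of -0.23 over the members against 0 over all features, and 0 of 10 members passed an absolute log2 fold change of 1, the criterion named by the series, which 2.85% of features passed. In 8 members HG and NC libraries were fully separated, as were those of 41.7% of all features.

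HG-SIG was compared with HG to ask what sitagliptin changed in high glucose, and here the members went separate ways. The transporter genes Tap1 and Tap2 rose, while B2m, H2-T23, Psmb8 and Psmb10 fell and H2-K1, H2-D1, Tapbp and Psmb9 did not pass the test. That makes 2 up and 4 down of 10, with 52.5% of all features called, 25.7% higher and 26.8% lower. The members' median log2 fold change was -0.04, against 0.01 over all features. The groups did not overlap in 7 members, against 58.7% of features. By the criterion of the series 0 of 10 members passed, against 5.3% of features.

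HG-SIG against NC gave 8 members that fell, 0 that rose and 2, Tap2 and Psmb9, that did not pass, with 58.6% of all features called, 29.9% higher and 28.7% lower. The members' median log2 fold change was -0.33, against 0.02 over all features. Groups did not overlap in 9 members, against 65.9% of features, and H2-T23 alone among the members passed an absolute log2 fold change of 1, which 8.51% of features did. The 3 comparisons share libraries pairwise and are not independent. The shares of all features given for each comparison are also the background of the counts for the other lists below.

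The comparisons with HG-SIG depend on how libraries are scaled. With library totals alone in place of TMM, the median log2 fold change of all features moved to 0.17 in HG-SIG against HG and 0.21 in HG-SIG against NC, and 76.9% and 76.2% of called features were higher, against 48.9% and 51.0% with TMM. Members then divided into 5 up and 3 down in HG-SIG against HG, with 7919 of 13311 features called, 6093 higher and 1826 lower. In HG-SIG against NC 5 members fell, with 8906 features called, 2120 of them lower. In HG against NC the shift was 0.03, with 58.9% of called features higher against 48.4% with TMM. There 7 members fell, with 4212 features called, 1732 of them lower. The falls of H2-T23, Psmb8 and Psmb10 with sitagliptin and the rises of Tap1 and Tap2 were called with either scaling.

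**Figure D2:**
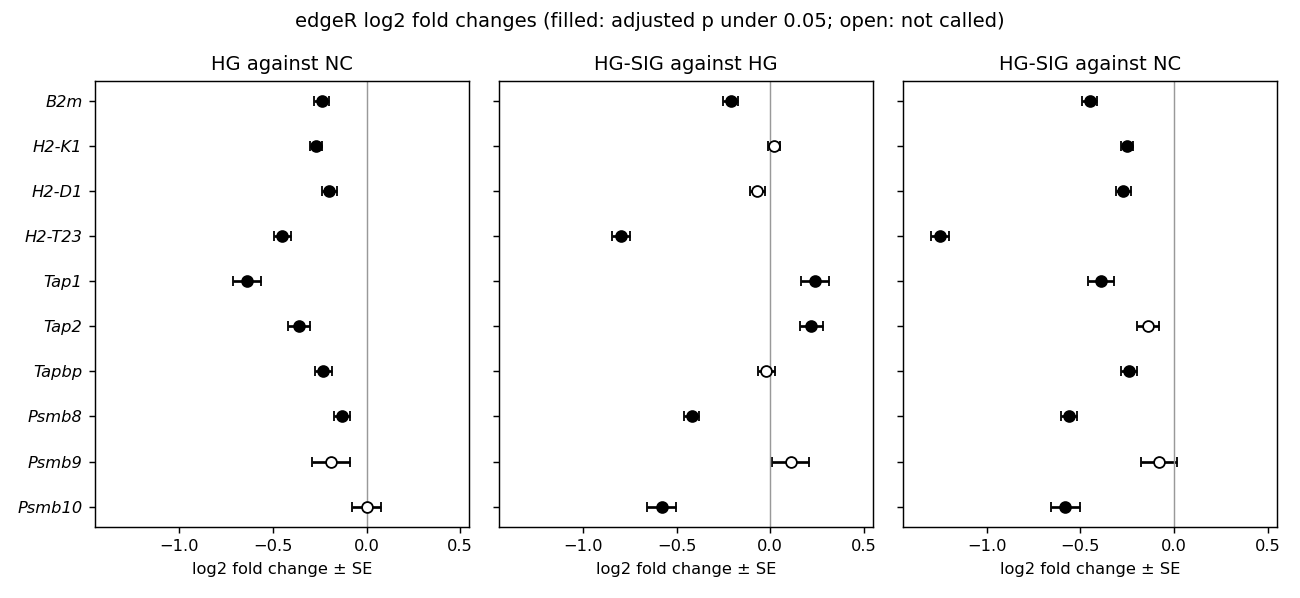
Log2 fold change of each member with its standard error in the 3 comparisons (edgeR, n = 3 libraries a group); filled points passed an adjusted p of 0.05. Tap1 had the lowest value in HG against NC (-0.64) and H2-T23 in both comparisons of HG-SIG (-0.80 and -1.25).

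B2m encodes the light chain shared by class I and class I-like molecules. It stood at 375, 352 and 353 CPM in NC replicates 1 to 3, at 313, 302 and 300 CPM in HG and at 261, 273 and 256 CPM in HG-SIG. The groups were ordered NC, HG, HG-SIG without overlap. B2m fell by 15.4% in HG against NC (log2 fold change -0.24 ± 0.04, SE, adjusted p = 5.25e-04) and fell by 27.0% in HG-SIG against NC (-0.45 ± 0.04, adjusted p = 7.05e-07). HG-SIG was also lower than HG (-0.21 ± 0.04, adjusted p = 6.47e-04), but this call was lost with library totals alone, at -0.05.

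H2-K1 and H2-D1 encode the classical heavy chains that present peptides to CD8 T cells. H2-K1 had 255, 260 and 257 CPM in NC, 211, 218 and 212 in HG and 218, 210 and 220 in HG-SIG. Every NC library was above every other library, and HG and HG-SIG overlapped. H2-K1 fell in HG against NC (-0.27 ± 0.03 log2, adjusted p = 5.82e-05), and HG-SIG against HG gave 0.02 ± 0.03 (adjusted p = 0.713).

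H2-D1, the most abundant of the heavy chains, had 512, 533 and 488 CPM in NC, 448, 458 and 432 in HG and 429, 420 and 426 in HG-SIG. It fell in HG against NC (-0.20 ± 0.04 log2, adjusted p = 0.00239). The HG-SIG libraries lay just under the lowest HG library, a difference that did not pass the test (-0.07 ± 0.04, adjusted p = 0.153). In HG-SIG against NC both heavy chains were lower, H2-K1 by -0.25 ± 0.03 and H2-D1 by -0.27 ± 0.04 log2 (adjusted p = 3.11e-05 and 8.25e-05). With library totals alone neither of these calls held, at -0.06 and -0.08, and H2-K1 was instead higher in HG-SIG than in HG, at 0.18.

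H2-T23 encodes the heavy chain of Qa-1, a class Ib molecule recognised by inhibitory receptors of natural killer cells. Its level was 34.0, 35.2 and 35.1 CPM in NC, 25.6, 25.7 and 25.0 in HG and 14.7, 14.9 and 14.3 in HG-SIG. The groups stood far apart compared with the spread within them, in the order NC, HG, HG-SIG. H2-T23 fell by 26.8% in HG against NC (-0.45 ± 0.05 log2, adjusted p = 8.93e-06), by a further 42.4% in HG-SIG against HG (-0.80 ± 0.05, adjusted p = 4.17e-08) and by 57.8% in HG-SIG against NC (-1.25 ± 0.05, adjusted p = 1.74e-10). These calls held in every alternative run.

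**Figure D3:**
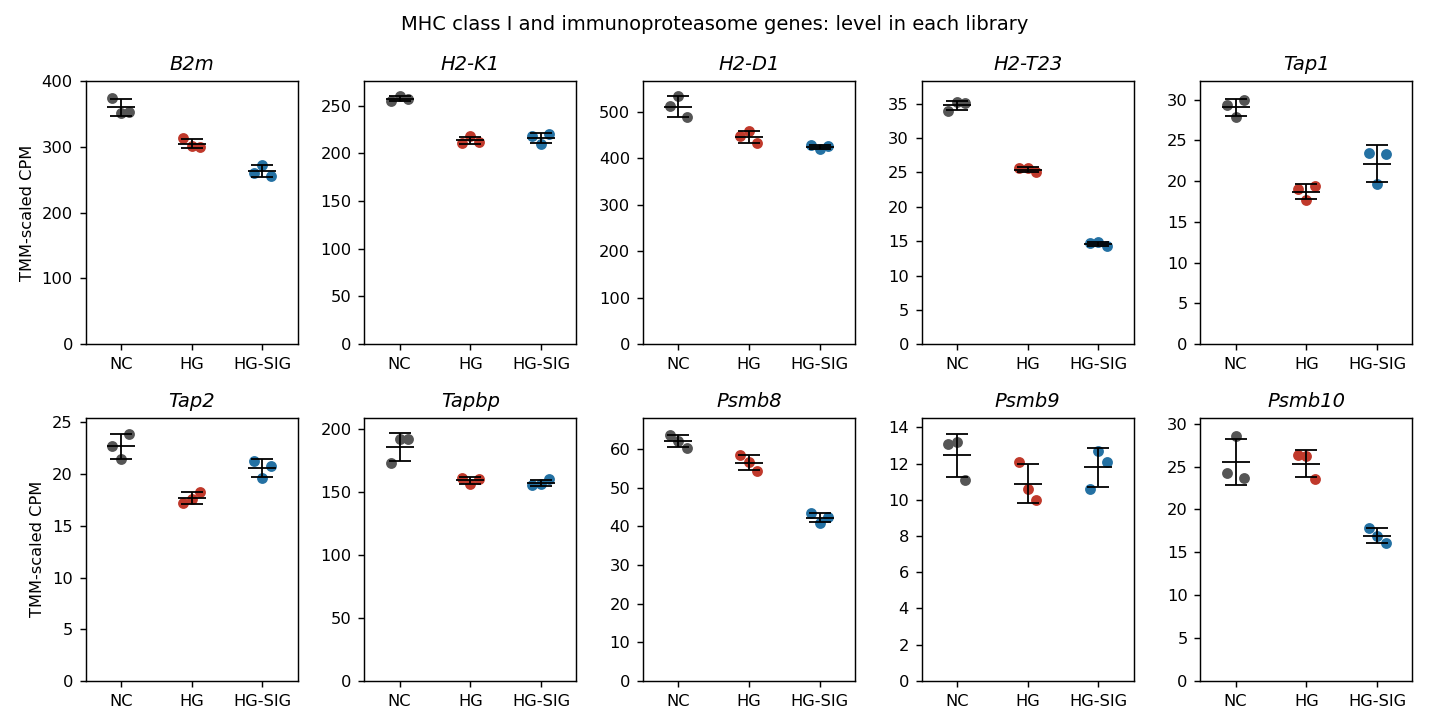
TMM-scaled CPM of each member in the 9 libraries, with the mean and SD of each group of 3; the vertical axes differ between panels and start at 0. H2-T23 stepped down from 34.8 to 25.5 to 14.7 CPM, Tap1 went down to 18.7 CPM in HG and was at 22.2 CPM in HG-SIG, and Psmb10 was lower in HG-SIG alone.

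Tap1 and Tap2 encode the partner chains of the peptide transporter. Tap1 stood at 29.3, 27.9 and 30 CPM in NC, at 19.1, 17.7 and 19.4 in HG and at 23.5, 19.6 and 23.4 in HG-SIG. No groups overlapped, though HG-SIG replicate 2 was only just above the highest HG library. Tap1 had the lowest log2 fold change of the members in HG against NC, a fall of 35.6% (-0.64 ± 0.07, adjusted p = 3.03e-05). In HG-SIG it was 18.4% above HG (0.24 ± 0.07, adjusted p = 0.0151) and below NC (-0.39 ± 0.07, adjusted p = 4.06e-04). The difference from NC was -0.20 with library totals alone, still called (adjusted p = 0.0281), and was not called by limma on log2(TPM + 1) (-0.16, adjusted p = 0.0889). The rise against HG was called with library totals alone (0.40). With TMM it lost its call without HG replicate 2 (adjusted p = 0.0655), without HG-SIG replicate 1 (0.0677) and without HG-SIG replicate 3 (0.0624).

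Tap2 had 22.7, 21.5 and 23.9 CPM in NC, 17.2, 17.6 and 18.3 in HG and 21.3, 19.6 and 20.8 in HG-SIG. HG was the lowest group without overlap, and the highest HG-SIG library was just below the lowest NC library. It fell by 22.1% in HG (-0.36 ± 0.06 log2, adjusted p = 6.02e-04) and rose by 16.3% from HG to HG-SIG (0.22 ± 0.06, adjusted p = 0.00858). In HG-SIG against NC it gave -0.14 ± 0.06 (adjusted p = 0.0502), next to the threshold and called in 6 of 17 alternative settings.

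Tapbp encodes tapasin, which holds an empty class I molecule at the transporter while it is loaded. Its level was 173, 192 and 192 CPM in NC, 161, 156 and 160 in HG and 155, 156 and 160 in HG-SIG. The lowest NC library was above all others, and HG and HG-SIG overlapped. Tapbp fell in HG against NC (-0.23 ± 0.04 log2, adjusted p = 0.00154). HG-SIG against HG gave -0.02 ± 0.04 (adjusted p = 0.786) with TMM and 0.15, called, with library totals alone. The fall in HG-SIG against NC (-0.24 ± 0.04, adjusted p = 3.45e-04) was not called with library totals alone, at -0.05.

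Psmb8 encodes the immunoproteasome subunit with chymotrypsin-like activity that replaces Psmb5. It had 63.7, 62.2 and 60.4 CPM in NC, 58.5, 56.7 and 54.4 in HG and 43.4, 41.0 and 42.4 in HG-SIG. The groups did not overlap, with a small step from NC to HG and a larger one to HG-SIG. In HG against NC Psmb8 fell by 8.92% (-0.13 ± 0.04 log2, adjusted p = 0.0277) and was called in 11 of 17 alternative settings. It was lost without NC replicate 1, NC replicate 2, HG replicate 2 or HG replicate 3. From HG to HG-SIG Psmb8 fell by 25.3% (-0.42 ± 0.04, adjusted p = 4.4e-06), and against NC by 32.0% (-0.56 ± 0.04, adjusted p = 1.85e-07).

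Psmb10 encodes the subunit that replaces Psmb7. It had 24.2, 28.6 and 23.7 CPM in NC, 26.3, 26.2 and 23.5 in HG and 17.8, 16.9 and 16.1 in HG-SIG. NC and HG overlapped, and every HG-SIG library was below them. HG against NC gave 0.00 ± 0.08 log2 (adjusted p = 0.975). In HG-SIG Psmb10 fell by 33.1% against HG (-0.58 ± 0.08, adjusted p = 5.16e-05) and fell by 33.3% against NC (-0.58 ± 0.08, adjusted p = 3.1e-05).

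Psmb9, which replaces Psmb6, passed in no comparison. Its level was 13.1, 13.2 and 11.1 CPM in NC, 12.1, 10.6 and 9.98 in HG and 10.6, 12.7 and 12.1 in HG-SIG, and all groups overlapped. The log2 fold change was -0.19 ± 0.10 in HG against NC (adjusted p = 0.186), 0.11 ± 0.10 in HG-SIG against HG (adjusted p = 0.361) and -0.08 ± 0.10 in HG-SIG against NC (adjusted p = 0.526). With library totals alone HG-SIG was higher than HG, at 0.27, and called. It rested on 227 to 406 counts a library, the fewest of the members, and had the widest standard errors.

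The balance between immunoproteasome and constitutive subunits was measured as the ratio of their counts within each library, which does not depend on scaling between libraries. The ratio of Psmb8 to Psmb5 was 0.847, 0.846 and 0.862 in NC, 0.863, 0.799 and 0.89 in HG and 0.729, 0.713 and 0.735 in HG-SIG. All HG-SIG libraries were below all others. NC had a mean of 0.852 ± 0.00899, HG of 0.851 ± 0.0469 and HG-SIG of 0.726 ± 0.0115 (SD, n = 3), a change of -14.6% from HG to HG-SIG (two-sided exact permutation test p = 0.1, 0.225 after Benjamini-Hochberg adjustment over 9 ratio comparisons).

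The ratio of Psmb10 to Psmb7 was 0.115, 0.139 and 0.12 in NC, 0.138, 0.14 and 0.128 in HG and 0.113, 0.101 and 0.108 in HG-SIG, again with HG-SIG below all others. It changed by -20.8% from HG to HG-SIG and by -13.7% from NC to HG-SIG (exact permutation p = 0.1 for each). On the log2 scale the NC to HG-SIG change was -0.21 with all libraries and -0.13 without NC replicate 2, and HG-SIG replicate 1 lay barely below NC replicate 1. With 3 libraries against 3 the exact test cannot go below 0.1, so separation without overlap is as far as this design can reach. The ratio of Psmb9 to Psmb6 had means of 0.0918 ± 0.0045, 0.0911 ± 0.0116 and 0.105 ± 0.0122 in NC, HG and HG-SIG, with overlapping libraries (exact permutation p = 0.3 for HG-SIG against HG). Its log2 change from HG to HG-SIG was 0.20, and 0.09 without HG replicate 2. Between HG and NC all 3 ratios overlapped (exact permutation p = 1, 1 and 0.3). Psmb5 shares 54.1% of its 50-base stretches with other genes, mostly with Gm3375, so the level of its ratio is uncertain.

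**Figure D4:**
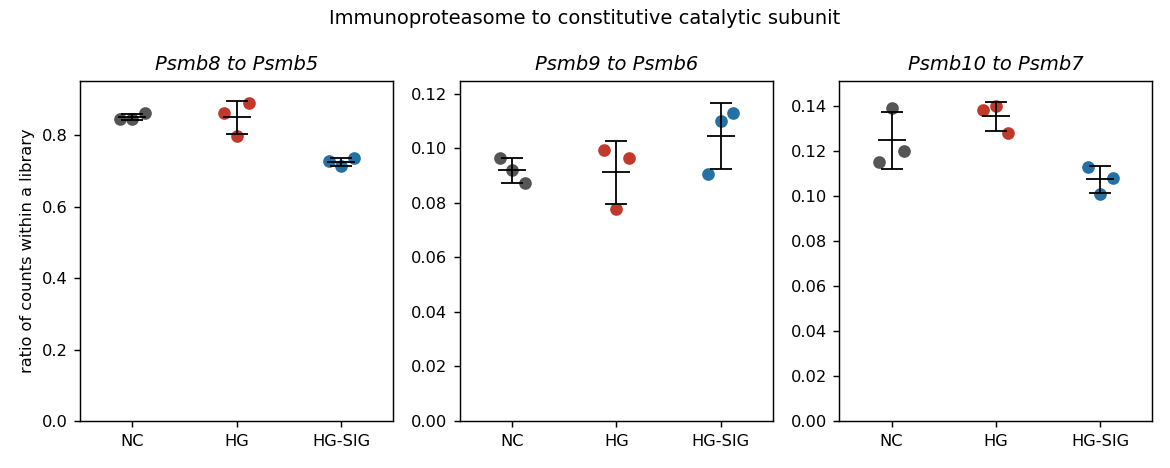
Ratio of counts of each immunoproteasome subunit to its constitutive counterpart within a library; points are libraries, lines the mean and SD of 3. Psmb8 to Psmb5 and Psmb10 to Psmb7 were lower in all HG-SIG libraries (means 0.726 and 0.107) than in HG (0.851 and 0.135), while Psmb9 to Psmb6 overlapped.

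Of the 3 constitutive subunits, Psmb5 and Psmb7 fell from HG to HG-SIG with TMM scaling. Psmb5 went from 72.9 ± 2.63 CPM in NC to 66.6 ± 5.03 in HG and 58.2 ± 1.13 in HG-SIG, and Psmb7 from 205 ± 6.26 to 187 ± 3.44 and 159 ± 9.22 CPM. The log2 fold changes from HG to HG-SIG were -0.20 ± 0.05 and -0.24 ± 0.04 (adjusted p = 0.00701 and 6.28e-04), and neither call held with library totals alone (-0.03 and -0.08). Psmb6 did not pass (-0.09 ± 0.08, adjusted p = 0.359), but was called lower without HG replicate 3 (-0.18, adjusted p = 0.0211). Of 10 proteasome activators and assembly factors, 0 rose and 2 fell in HG against NC, and 4 rose and 3 fell in HG-SIG against HG. The interferon-inducible activator subunit Psme1 was at 95.8 ± 4.96, 90.5 ± 6.77 and 68.2 ± 3.55 CPM in NC, HG and HG-SIG, and fell from HG to HG-SIG (-0.41 ± 0.06, adjusted p = 9.5e-05). Its partner Psme2 gave -0.29 ± 0.07 in that comparison (adjusted p = 0.00297), not called with library totals alone. Psme4, the nuclear activator, rose (0.39 ± 0.05, adjusted p = 2.5e-05).

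Among the other class I and class I-like heavy chains, 17 of 24 listed were in the table and 15 were tested. In HG against NC 1 rose and 6 fell, in HG-SIG against HG 2 rose and 3 fell, and in HG-SIG against NC 2 rose and 7 fell. H2-T24, a class Ib gene of the same T region as H2-T23, stood at 95.5, 89.5 and 89.1 CPM in NC, 42.2, 41.3 and 42.5 in HG and 10.4, 10.7 and 12.1 in HG-SIG. Its groups were ordered as those of H2-T23, with larger steps: -1.12 ± 0.05 log2 in HG against NC (adjusted p = 4.4e-09) and -1.92 ± 0.06 in HG-SIG against HG (adjusted p = 9.25e-11).

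H2-M3, a class Ib chain that presents N-formylated peptides, did not pass in HG and fell with sitagliptin, as Psmb10 did, with -0.10 ± 0.08 in HG against NC (adjusted p = 0.381) and -0.93 ± 0.09 in HG-SIG against HG (adjusted p = 2.3e-06). Hfe, a class I-like regulator of iron uptake, was higher in HG than in NC (0.51 ± 0.07, adjusted p = 2e-04) and fell from HG to HG-SIG (-0.74 ± 0.08, adjusted p = 4.12e-06). Mr1, which presents vitamin metabolites to MAIT cells, was low in all libraries, at 0.535 to 1.1 CPM in NC, 0.616 to 1.01 in HG and 1.77 to 2.22 in HG-SIG, and rose with sitagliptin (1.30 ± 0.26, adjusted p = 0.00117). The 3 class Ib genes described, H2-T23, H2-T24 and H2-M3, fell with sitagliptin. Of the class I-like genes Mr1 and Fcgrt rose (Fcgrt 0.75 ± 0.17, adjusted p = 0.00224) and Hfe fell. H2-T24 and H2-M3 were named for their low p. The other tested H2 genes of this list were not called in HG-SIG against HG, with values from -0.27 (H2-Q2) to 0.34 (H2-Bl).

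Of 13 loading chaperones and trimming peptidases tested, 1 rose and 2 fell in HG against NC, and 1 rose and 5 fell in HG-SIG against HG. Tapbpl, a second peptide editor related to tapasin, went from 6.18 ± 0.327 CPM in NC to 4.56 ± 0.19 in HG and 4.55 ± 0.309 in HG-SIG (-0.44 ± 0.10 log2 in HG against NC, adjusted p = 0.00399, and -0.01 ± 0.10 in HG-SIG against HG, adjusted p = 0.965). Its means followed those of Tapbp. The general chaperones of the endoplasmic reticulum that serve class I assembly, Calr, Canx and Pdia3, did not pass in HG against NC (-0.02, 0.03 and 0.03, each ± 0.04 SE). They fell from HG to HG-SIG by -0.45, -0.27 and -0.38 log2 (adjusted p = 4.86e-07, 3.22e-05 and 2.01e-06). The call of Canx was lost with limma on log2(TPM + 1), at -0.07 (adjusted p = 0.0987). Erap1, which trims peptides to their final length, was at 125 ± 1.29, 118 ± 2.15 and 106 ± 2.03 CPM, with -0.09 ± 0.03 in HG against NC (adjusted p = 0.072) and -0.15 ± 0.03 in HG-SIG against HG (adjusted p = 0.00188), a value of 0.01 with library totals alone.

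The class I transactivators and interferon signalling genes, 24 tested, gave 3 that rose and 13 that fell in HG against NC, and 8 that rose and 11 that fell in HG-SIG against HG. Nlrc5 had 21.2, 19.4 and 20.6 CPM in NC, 13.8, 13.8 and 16.4 in HG and 11.4, 11.1 and 12.3 in HG-SIG. Its groups were ordered NC, HG, HG-SIG without overlap, as for B2m, H2-D1, H2-T23 and Psmb8. Other members differed: from HG to HG-SIG, H2-K1 and Tapbp overlapped and Tap1 and Tap2 rose. The step of H2-D1 from HG to HG-SIG was not called, and was 0.09 with library totals alone. Nlrc5 fell in HG against NC (-0.48 ± 0.08 log2, adjusted p = 3.89e-04). Its fall from HG to HG-SIG (-0.33 ± 0.08, adjusted p = 0.00359) was not called with library totals alone, at -0.17. A part of Nlrc5 in the levels of the members was not tested.

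Irf1, an activator of class I and immunoproteasome promoters, went from 15.5 ± 0.426 CPM in NC to 13.6 ± 0.381 in HG and 17.6 ± 1.06 in HG-SIG. Its lowest level was in HG, as for Tap1 and Tap2, while Psmb8 and Psmb10 fell from HG to HG-SIG. Irf1 rose from HG to HG-SIG by 0.37 ± 0.06 (adjusted p = 3.26e-04). Its fall from NC to HG (-0.19 ± 0.07, adjusted p = 0.0383) lost its call in 6 of 9 fits with a library left out. In HG-SIG Irf1 was above NC (0.18 ± 0.06, adjusted p = 0.0248), whereas Tap1 was below NC. That call of Irf1 was lost in 3 of 9 fits with a library left out. A part of Irf1 in the levels of the members was not tested. Irf7 fell in both steps (-1.15 ± 0.05 and -0.39 ± 0.05, adjusted p = 3.29e-09 and 4.54e-05). From HG to HG-SIG the receptor chain Ifnar2 and the macrophage factor Irf8 fell (-0.69 and -0.88, adjusted p = 9.61e-09 and 1.33e-07), and the kinase Jak2 rose (0.75, adjusted p = 5.72e-08).

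The interferon-stimulated effectors, which act against viruses and do not present antigen, had larger differences than the members. All 20 tested fell in HG against NC, with a median log2 fold change of -1.01, and 14 fell and 3 rose in HG-SIG against HG, with a median of -0.67. Cxcl10, a chemokine, went from 16.3 ± 0.179 CPM in NC to 4.85 ± 0.325 in HG and 2.06 ± 0.145 in HG-SIG. Isg15, a ubiquitin-like protein, went from 9.35 ± 0.621 to 2.98 ± 0.555 and 1.38 ± 0.254 CPM. Gbp7, a guanylate-binding protein, fell in HG (-1.36 ± 0.18, adjusted p = 9.24e-05) and rose with sitagliptin (0.98 ± 0.18, adjusted p = 6.89e-04). This list is given as a description and was known from earlier results of these data to be lower in HG.

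MHC class II genes, which present peptides from outside the cell, were mostly at very low counts: 12 of 13 listed were in the table and 5 were tested. H2-Ab1 had at most 0.166 CPM in any library and the class II transactivator Ciita at most 0.0413 CPM. In HG-SIG against HG 0 of the 5 rose and 2 fell, Ctss (-0.48 ± 0.04, adjusted p = 7.78e-07) and Ifi30 (-0.20 ± 0.04, adjusted p = 8.2e-04). The call of Ifi30 was lost with library totals alone (-0.04). In HG against NC Ctss did not pass (0.06 ± 0.04, adjusted p = 0.315). Ifi30 rose (0.12 ± 0.04, adjusted p = 0.0345), a call lost in 6 of 9 fits with a library left out. The invariant chain Cd74 was at 105 ± 1.42, 84.1 ± 4.17 and 89.8 ± 1.14 CPM, a fall in HG against NC (-0.32 ± 0.04, adjusted p = 6.11e-05) with 0.09 ± 0.04 in HG-SIG against HG (adjusted p = 0.0649). The latter was called higher with library totals alone (0.26, adjusted p = 1.02e-04), with limma on log2(TPM + 1) (0.29, adjusted p = 9.18e-06) and with a replicate block (0.09, adjusted p = 0.0361), and the fall in HG-SIG against NC was lost with library totals alone (-0.03).

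**Figure D5:**
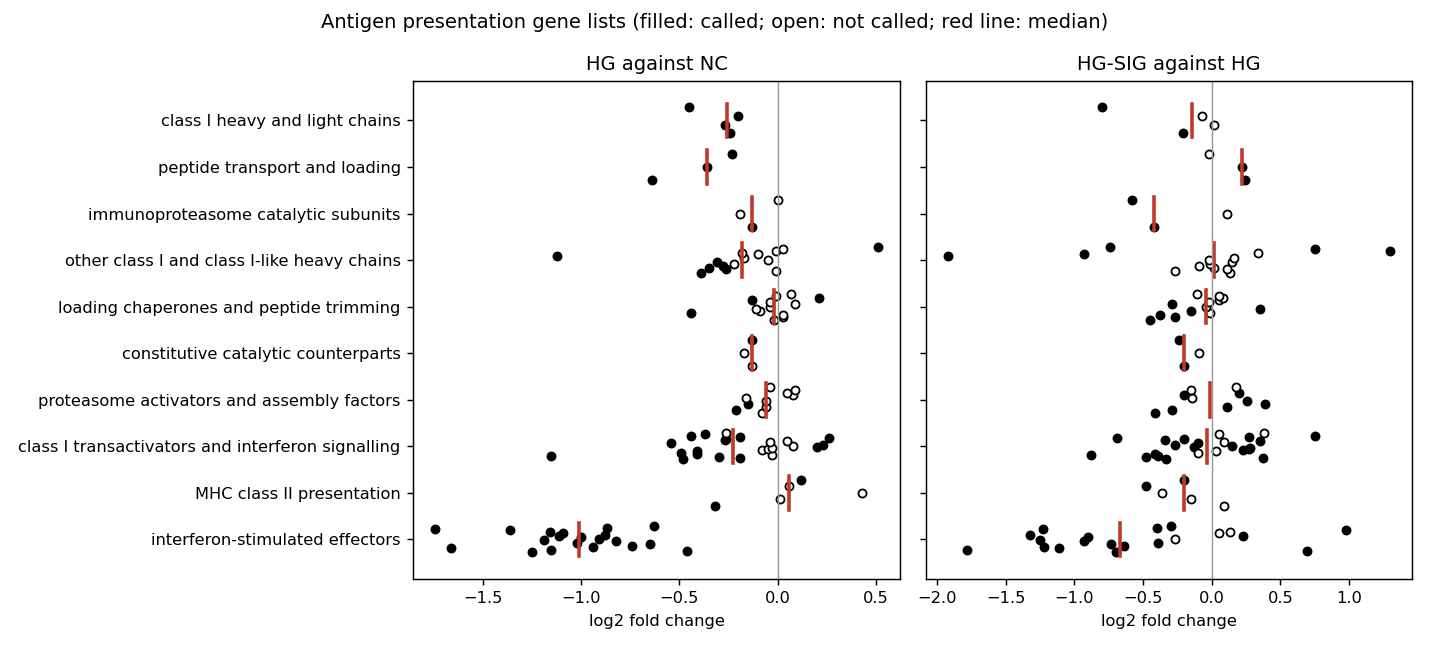
Log2 fold change of each tested gene by list in HG against NC and in HG-SIG against HG; filled points passed an adjusted p of 0.05, open points did not, and red lines are the medians of the lists. The upper 3 lists are the members by role and sit closer to 0 than the interferon-stimulated effectors, whose medians were -1.01 and -0.67.

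Across the 9 libraries the members did not follow a single course. Pearson's r of log2 CPM was 0.98 between H2-T23 and Psmb8, 0.94 between Tap1 and Tap2, 0.94 between Psmb8 and Psmb10 and 0.92 between H2-K1 and H2-D1. It was -0.16 between Tap2 and Psmb10 and 0.03 between Psmb9 and Psmb10. These values describe 9 libraries that share 3 group means, and carry no test. The named genes outside the lists whose levels were most like B2m by the same measure were Ccl3 (r = 0.991), Phf11d (0.989) and Evi2a (0.989). For Tap1 they were Pld1 (0.981), Fam214b (0.977) and Srp54c (0.974), and for Psmb8 Zfp446 (0.997), Pdlim2 (0.996) and Ctsd (0.996). Ccl3 spanned a wider range than B2m, from 70.7 CPM in NC to 30.3 in HG and 14.4 in HG-SIG, whereas Ctsd, a lysosomal protease, went from 840 to 749 and 495 CPM.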

How the data were processed

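Polyadenylated RNA was sequenced from 9 libraries in 3 groups of 3 (groups and replicate numbers from the sample titles). The deposited values are whole-number gene counts; per the submitters' processing notes the authors used Bowtie2 2.3.5, RSEM and mm10, while no source used here gives the annotation release or the strand setting. RSEM estimates may have been rounded before deposit. Library totals were 23285821 to 31571578.

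Counts were filtered with filterByExpr by group, TMM scaling was applied, and edgeR 4.0.16 (R 4.3.3) fitted 1 mean per group over all 9 libraries. Its quasi-likelihood F-test gave the p-values, which were adjusted by Benjamini-Hochberg over the 13311 features, with 0.05 as the threshold. A standard error is the absolute log2 fold change divided by the square root of F. Unannotated loci (1996 features, 5.85% to 6.21% of counts) stayed in. Scripts were tested on simulated data. DESeq2 1.42.0 and limma 3.58.1 served as alternatives, as did other scalings, filters, sets of libraries and a replicate block.

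The members and lists were chosen with earlier results of these data known. Named were all members, a set of related genes (Psmb5 to Psmb7, Psme1, Psme2, Tapbpl, Erap1, Calr, Canx, Pdia3, Nlrc5 and Irf1; 1 other is not reported here), from each list up to 3 called genes by p and those beyond a log2 fold change of 1, and for B2m, Tap1 and Psmb8 the 3 genes of highest r whose average log2 CPM reached 2. Not all genes chosen by p or by size of change are reported here. H2-Ab1, Ciita and Fcgrt were chosen after their values were seen.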

Additional observations from a re-analysis of the deposited data

How the results depend on the processing

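In HG-SIG against NC 8 members were called in the main analysis, 5 with library totals alone and 4 with limma on log2(TPM + 1). All features called there numbered 7801, 8906 and 8819, of 13311, 13311 and 12109 tested. In HG-SIG against HG 2 members rose in the main analysis, 5 with library totals alone and 6 with limma. The features called higher numbered 3417, 6093 and 6541, and those called lower 3572, 1826 and 1506. With library totals alone, values that passed the test in one or both analyses changed sign in HG-SIG against HG for Tapbp (0.15), Erap1 (0.01) and Nfkb1 (0.06), and in HG-SIG against NC for H2-Q10 (0.03), Blmh (0.11) and Ifi30 (0.11). With limma, which has no TMM step, they did so in HG-SIG against HG for H2-D1 (0.13), Tapbp (0.18), Psmb5 (0.01), Erap1 (0.04) and Nfkb1 (0.10), and in HG-SIG against NC for H2-Q10 (0.06), Blmh (0.15), Cd74 (0.01), Ifi30 (0.15) and Lap3 (0.03). Tapbp and H2-D1 in HG-SIG against HG had not passed the test in the main analysis. Library totals alone differ from the main analysis in scaling only. The limma alternative also differs in pseudocount, length scaling, test and features (12109 tested), and the cause of its changes was not tested.

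With each library left out in turn, the members called numbered 7 to 8 in HG against NC, 5 to 6 in HG-SIG against HG and 8 to 9 in HG-SIG against NC. All genes called numbered 3062 to 4000, 6193 to 7147 and 7106 to 8191. The log2 change of Psmb10 to Psmb7 in HG-SIG against NC ran from -0.27 to -0.13, and that of Psmb9 to Psmb6 in HG-SIG against HG from 0.09 to 0.30.

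Replicate numbers were taken not to pair the libraries. Same-numbered libraries had correlations of 0 to 0.1 in their deviations from the group means, and differently numbered libraries had -0.08 to 0.04. Whether the numbers mark a weak pairing was not tested. With a replicate block 4663, 7563 and 8282 genes were called, against 3927, 6989 and 7801 without it, and 8, 6 and 9 members. Tap2 was then called in HG-SIG against NC (-0.14, adjusted p = 0.0316).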
